A study of Mus musculus with 18 samples.

Results

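Organoids from the distal and the proximal mouse colon, both kept in control medium, were compared gene by gene over 6 RNA sequencing libraries, 3 per region. A gene entered the comparison when it reached 1 FPKM (fragments per kilobase of gene, scaled to library size) in at least 3 of the 6 libraries, and 11511 of the 56748 genes in the table did, 10326 of them protein-coding. Organoids are 3-dimensional epithelial cultures, here of mouse proximal, mid and distal colon, and the series holds 18 libraries in 6 groups of 3, one for each region and medium. As control medium, ENR plus conditioned medium with Wnt3a was used to keep cells proliferating, and the other groups received differentiation medium, both from day 3 after passage. The distal and proximal groups thus shared the medium, the day and the poly-A selection of RNA, and differed in the region of origin. Mouse strain, sex, age and the number of animals or lines behind the replicates are not given in the sources used here, so the p-values measure only the spread between these samples, which may be technical.

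The colon is patterned along its length, and its ends differ in the way they handle fluid, fat, salt and microbes. Hox genes are homeobox transcription factors that lie in 4 clusters (HoxA to HoxD), and their order along a cluster matches the order of the body regions in which they are active, with the highest numbered paralogues towards the tail. Epithelial cells keep part of this positional expression after they are taken from the gut and grown without the surrounding mesenchyme.

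Depth, recovered as whole reads from FPKM and gene length, was 13090322 to 18504587 reads per library, at which 3 reads on a gene of 1 kb equal 0.139 to 0.193 FPKM, and 11250 to 11415 genes reached 1 FPKM. Mitochondrial genes took 2.67% ± 0.443 of reads in distal and 2.05% ± 0.0417 in proximal libraries (SD, n = 3; two-sided exact permutation p = 0.1, the smallest that 3 against 3 allows). Across genes the replicates correlated at 0.963 to 0.990 in proximal, at 0.947 to 0.970 in distal organoids, and at 0.888 to 0.935 between the regions. On the first principal component of the 9 control libraries (54.6% of the variance) proximal replicates 1, 2 and 3 lay at -25.7, -42.8 and -45.2 and distal replicates at 18.8, 29.0 and 9.24, so proximal replicate 1 and distal replicate 3 lay nearest to the other region. Epithelial markers were high throughout, with Epcam at 372, 336 and 351 FPKM in proximal and 383, 346 and 502 FPKM in distal replicates 1, 2 and 3. Ptprc, Pecam1 and Pdgfra, which mark immune, endothelial and stromal cells, did not exceed 0.0224 FPKM in any of the 6 libraries. Squamous and urothelial markers were not near the floor. The 13 genes of that list summed to 524, 738 and 756 FPKM in proximal and 720, 509 and 213 FPKM in distal replicates. Krt4 was the highest of them, at up to 609 FPKM. The 18 stromal marker genes summed to 1.01 to 2.48 FPKM in proximal and 4.13 to 7.08 FPKM in distal libraries, mostly through Fbln1, a matrix glycoprotein (2.33, 0.720 and 0.574 FPKM in proximal and 3.29, 5.22 and 2.996 FPKM in distal replicates; log2 difference 1.19 ± 0.25). The 20 immune marker genes summed to 3.45 to 5.62 and 4.61 to 5.26 FPKM, and no endothelial, neural or muscle marker passed the filter. The part of such cells in the results was not tested. The call of Fbln1 was lost when only the 6 libraries were fitted (adjusted p up to 0.118).

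Distal and proximal organoids differed in 1301 of the 11511 genes, or 11.3% (limma on log2(FPKM + 1), two-sided, Benjamini-Hochberg adjusted p under 0.05). Of these, 669 (5.81%) were higher and 632 (5.49%) lower in distal organoids, the median log2 difference over all tested genes was 0.02, and 310 higher (2.69%) and 279 lower genes (2.42%) differed by at least 1 on the log2 scale. The groups did not overlap in 1235 of the 1301 called genes, against 3142 (27.3%) of the 11511 tested genes. Of the 60 called genes with the largest differences, at least 5 FPKM in the higher group and no overlap, 54 kept their call in every alternative run. They were chosen for large differences in the same libraries, so this number is a description. The count depended on which libraries entered the fit: it was 755 when only the 6 libraries compared were fitted, 773 without proximal replicate 2 and 804 without proximal replicate 3, and the count of lower genes was 412 without distal replicate 2. Of the 1301 genes, 456 were called in the same direction in all 18 alternatives run. A gene whose call was lost when only the 6 libraries were fitted (by limma, by limma with a replicate block or by limma-voom on the recovered reads) is named in its paragraph. Of the tested genes 320 reached 1 FPKM in no library of one region, so that they passed the filter through the other region, and 282 of these 320 were called. The other 11191 genes held 1019 calls, or 9.11%. Below, differences are distal minus proximal on the log2(FPKM + 1) scale with the standard error (SE) of the fit, which understates changes of genes at low levels, and the values in a group are given in the order of replicates 1, 2 and 3.

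**Figure D1:**
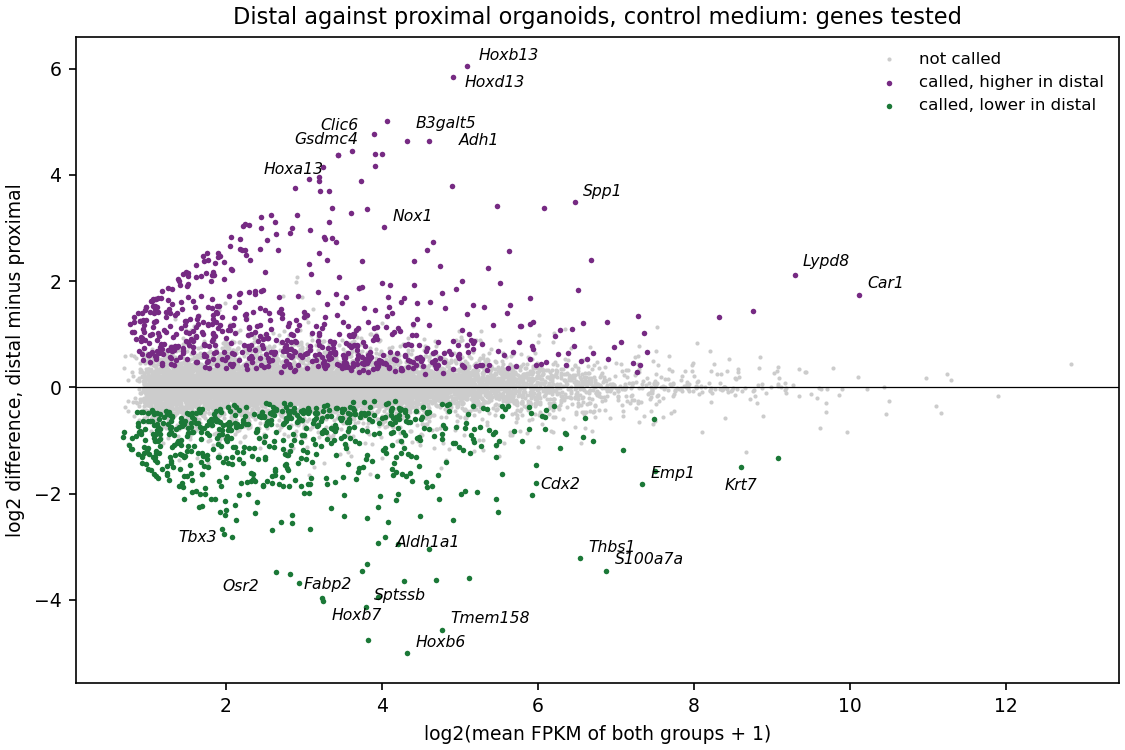
Mean level of both groups (log2 scale of FPKM + 1) against the log2 difference between distal and proximal organoids for the 11511 genes tested, with the 669 genes called higher in distal organoids in purple, the 632 called lower in green and all others in grey. Hoxb13 and Hoxd13 lie highest at 6.05 and 5.84 and Hoxb6 lowest at -5.01.

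Hox genes were divided between the ends of the colon, largely by cluster, with Hoxb13 apart from the other HoxB genes. Of 39 Hox genes 17 passed the filter and these were called, where 11.3% of all tested genes were. In 16 of the 17, all but Hoxb9, no library of the lower region reached 1 FPKM, so they passed through the region where they are high and had to differ, and their number is given as a description. All 7 HoxA genes that passed were higher in distal organoids, as were both HoxD genes, while 7 of 8 HoxB genes were lower. No HoxC gene passed, and their highest value in the 6 libraries was 0.0248 FPKM. With bulk RNA, fewer cells of a type and less RNA per cell cannot be told apart, here and in all results that follow.

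Hoxb13 (ENSMUSG00000049604, chromosome 11, 96085142 to 96088273 on the mm39 build, as are all gene positions here), the paralogue nearest the tail end in its cluster, had 0 reads in all 3 proximal libraries and 61.4, 80.3 and 56.0 FPKM in distal organoids. It was at least 2634-fold higher in distal organoids, where the proximal group is set at 3 reads in all, a floor for counting error only (log2 difference 6.05 ± 0.17 SE, adjusted p = 1.06e-12). Hoxd13 (ENSMUSG00000001819, chromosome 2, 74498654 to 74501943) likewise had 0 reads in every proximal library and stood at 58.2, 74.2 and 41.4 FPKM in distal organoids, at least 2622-fold higher (log2 difference 5.84 ± 0.17 SE, adjusted p = 1.06e-12). Both genes thus went from no read at all in proximal organoids to above 40 FPKM in every distal library. Hoxa13 (ENSMUSG00000038203, chromosome 6, 52234674 to 52237788) was at 17.7, 22.7 and 18.7 FPKM against 0 reads, at least 853-fold higher (log2 difference 4.36 ± 0.09 SE, adjusted p = 2.61e-14). Hoxa10 was at 16.7, 21.2 and 21.3 FPKM against 0 reads, at least 1157-fold higher (log2 difference 4.37 ± 0.14 SE, adjusted p = 3.78e-12).

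The HoxA genes nearer the head end of the cluster were not at 0 in every proximal library, and their differences were smaller. Hoxa9 stood at 0.0115, 0 and 0 FPKM in proximal and 10.3, 13.3 and 14.7 FPKM in distal organoids (3.76 ± 0.17), Hoxa7 differed by 2.82 ± 0.19, Hoxa6 by 2.39 ± 0.28 and Hoxa5 by 2.22 ± 0.22. Hoxa3, the lowest numbered HoxA gene that passed, went from 0.652, 0.708 and 0.387 to 1.39, 1.28 and 1.58 FPKM, the smallest difference of the 7 (log2 difference 0.62 ± 0.11 SE, adjusted p = 0.00152). The order of the differences therefore followed the order of the genes except that Hoxa10 and Hoxa13 stood level at 4.37 and 4.36. Hoxd10 was the only other HoxD gene to pass, at 1.38, 1.79 and 1.76 FPKM in distal organoids with 0 reads in proximal ones, at least 53.5-fold higher (log2 difference 1.40 ± 0.15 SE, adjusted p = 1.33e-05). The call of Hoxa3 was lost when only the 6 libraries were fitted (adjusted p up to 0.134).

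HoxB genes other than Hoxb13 formed a block with the opposite sign. Hoxb6 (ENSMUSG00000000690, chromosome 11, 96183302 to 96192395) stood at 46.0, 32.7 and 35.0 FPKM in proximal and 0.226, 0.219 and 0.142 FPKM in distal organoids (log2 difference -5.01 ± 0.12 SE, adjusted p = 1.84e-13). Hoxb7 was at 17.2, 17.1 and 16.4 against 0.128, 0.0929 and 0.0725 FPKM (log2 difference -4.03 ± 0.09 SE, adjusted p = 2.61e-14). Hoxb8 was at 15.7, 12.2 and 11.8 against 0.112, 0.0544 and 0.127 FPKM (log2 difference -3.69 ± 0.13 SE, adjusted p = 1.32e-11). In all 3 no distal library exceeded 0.226 FPKM, while every proximal library was above 11 FPKM. Hoxb4, Hoxb5 and Hoxb3 were lower in the same way, with differences of -2.82, -2.66 and -1.55. Hoxb9 was the one gene of the block that kept a clear distal level, at 49.9, 36.1 and 41.2 FPKM in proximal and 4.36, 4.33 and 3.89 FPKM in distal organoids (log2 difference -3.05 ± 0.21 SE, adjusted p = 6.34e-08). Within this cluster the sign thus changed between Hoxb9 and Hoxb13.

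**Figure D2:**
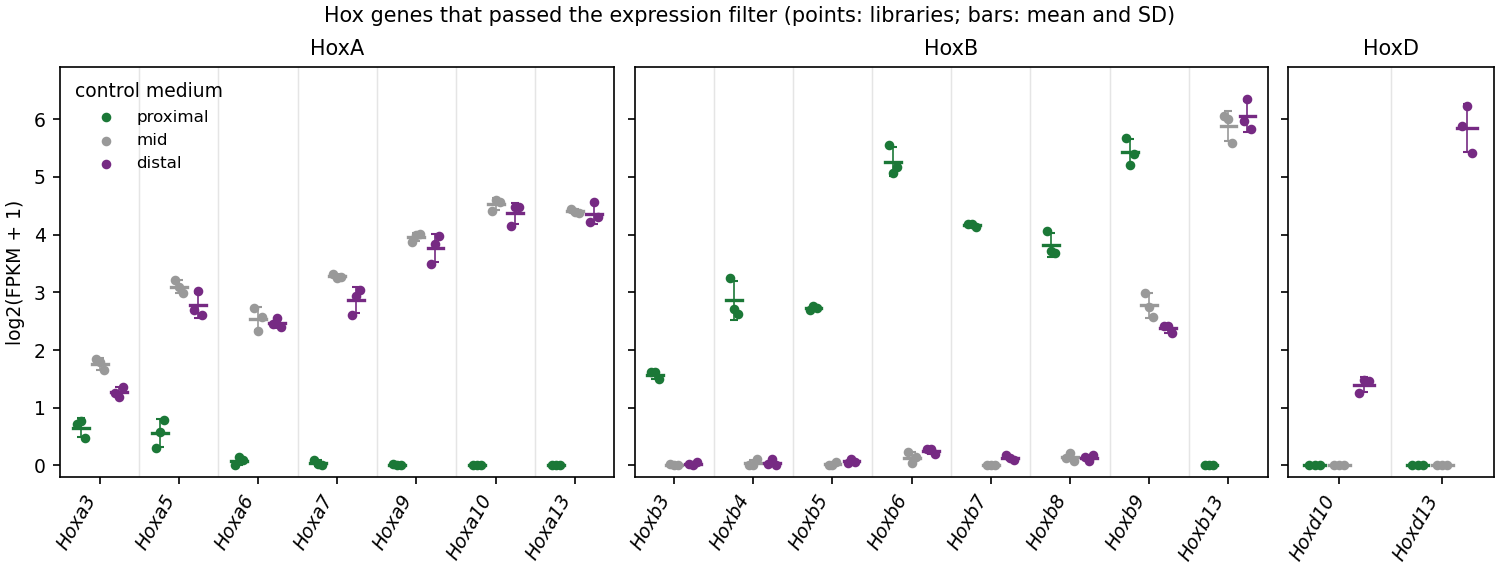
Levels of the 17 Hox genes that passed the filter on the log2(FPKM + 1) scale in proximal (green), mid (grey) and distal (purple) organoids in control medium, with 1 point per library and the mean and SD of 3 libraries per group. HoxA genes, Hoxb13 and the HoxD genes are high in distal organoids, Hoxb3 to Hoxb9 are high in proximal organoids, and Hoxd10 and Hoxd13 are at 0 in mid organoids.

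RNAs transcribed from within the clusters moved with their neighbours. Of 4 tested non-coding RNAs, 3 were higher and 1 lower in distal organoids, and all 4 passed the filter through 1 region only. Hoxa11os was at 6.97, 8.65 and 6.75 FPKM against 0 reads (log2 difference 3.07 ± 0.15 SE, adjusted p = 7.6e-10), Hottip, which is transcribed from the end of HoxA beyond Hoxa13, at 1.81, 3.59 and 1.48 FPKM against 0 reads (1.67 ± 0.22), and Hotairm1 differed by 0.69 ± 0.18, a call lost without proximal replicate 2 or distal replicate 3 (adjusted p = 0.0618 to 0.0645) and when only the 6 libraries were fitted (up to 0.093). Hoxb5os was at 22.8, 12.1 and 14.9 FPKM in proximal and 0.247, 0.0600 and 0 FPKM in distal organoids (log2 difference -3.96 ± 0.22 SE, adjusted p = 3.73e-09). It overlaps Hoxb5 and Hoxb6 on the opposite strand, and the labels do not say whether strand was kept, so its reads and theirs cannot be told apart.

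Among all tested genes ordered along the chromosomes, the longest run of neighbours called in the same direction was the HoxA run, 12 genes over 117 kb of chromosome 6 (52178734 to 52295363) from Hoxa5 to Evx1. Next came 8 lower genes over 76.5 kb of chromosome 11 (96162283 to 96238756) from Hoxb9 to Hoxb3. A run of 5 higher genes, Ttll6, Hoxb13, the miscellaneous RNAs ENSMUSG00002075973 and ENSMUSG00002076964 and Gm11538, lay on the same chromosome from 96024612 to 96096309. The table held 18 runs of at least 3 genes, 7 of them of at least 4, and the 4 longest were all of Hox regions, the last with Skap2, Hotairm1 and Hoxa3 among its genes. Every Hox gene in these 4 runs except Hoxb9, and the 4 tested non-coding RNAs of the clusters, passed the filter through 1 region only. They had to differ, so the lengths of these runs are a description. Genes in these runs are named by their place in them. Evx1 and Evx2, homeobox genes that flank HoxA and HoxD and were chosen after their values were seen, also went with their clusters, at 2.05 ± 0.17 and 1.63 ± 0.11.

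Promoter sequences are shown for single genes picked as examples of each direction. These are Hoxa13 and Hoxd13, which were at 0 in proximal organoids, and Hoxb8 and Fabp2, an intestinal fatty acid-binding protein, which were lower in distal organoids. They are RefSeq sequences on GRCm38.p6 (another build than that of the gene positions), 250 bases up to the start, read along the gene's strand, and 150 of the 215 named genes had an entry. Capitals mark TTTATTG on either strand, letters found in known binding motifs of CDX and posterior HOX proteins, a string without overlap with itself that 4.20% of all 32851 promoters of this length hold.
Hoxa13, chr6:52260881-52261130, minus strand: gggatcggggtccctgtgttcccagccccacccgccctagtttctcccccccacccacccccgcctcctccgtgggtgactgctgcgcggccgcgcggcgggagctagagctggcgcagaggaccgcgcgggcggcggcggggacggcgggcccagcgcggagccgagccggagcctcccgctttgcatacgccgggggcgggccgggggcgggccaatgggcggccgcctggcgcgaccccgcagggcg
Hoxd13, chr2:74667975-74668224, plus strand: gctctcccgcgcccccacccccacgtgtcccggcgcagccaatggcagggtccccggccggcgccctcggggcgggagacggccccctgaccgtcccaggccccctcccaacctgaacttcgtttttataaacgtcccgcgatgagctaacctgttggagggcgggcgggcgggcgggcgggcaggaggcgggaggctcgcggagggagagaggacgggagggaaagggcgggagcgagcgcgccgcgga
Hoxb8, chr11:96281655-96281904, plus strand: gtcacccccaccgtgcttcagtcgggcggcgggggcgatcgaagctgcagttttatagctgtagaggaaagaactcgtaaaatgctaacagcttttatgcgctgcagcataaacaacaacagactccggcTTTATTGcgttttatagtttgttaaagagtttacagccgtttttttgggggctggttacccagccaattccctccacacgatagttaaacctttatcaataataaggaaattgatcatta
Fabp2, chr3:122894822-122895071, plus strand: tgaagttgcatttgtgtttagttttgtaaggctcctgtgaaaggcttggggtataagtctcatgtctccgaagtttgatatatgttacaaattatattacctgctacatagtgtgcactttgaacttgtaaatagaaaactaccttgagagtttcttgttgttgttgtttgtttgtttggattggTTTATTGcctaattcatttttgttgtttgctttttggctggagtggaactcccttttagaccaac
Hoxb8 and Fabp2 each hold 1 match, and Hoxa13 and Hoxd13 hold none in this window. The promoters also differ in CpG dinucleotides, of which Hoxa13 has 35 and Hoxd13 has 31, against 12 in Hoxb8, 1 in Fabp2 and a median of 6 over all promoters. GC content was 80.0% and 74.4% in Hoxa13 and Hoxd13 and 44.4% and 35.6% in Hoxb8 and Fabp2. Neither matches nor CpG dinucleotides were counted over the higher or the lower genes. A link of either to the direction of the difference was not tested.

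Other transcription factors also separated the ends, without an excess over the background for the class as a whole. Of 731 tested genes that the table annotates as transcription factors, Hox genes included, 49 were higher and 37 lower in distal organoids, or 11.8% against 11.3% of all tested genes. Without the 17 Hox genes, 69 of 714 were called. In the homeobox class 27 of 38 were called, 17 of them Hox genes, which leaves 10 of 21 other homeobox genes, 2 of them present at 1 FPKM in 1 region only. Osr2, a zinc finger factor known from limb, jaw and gut development, was at 14.4, 9.9995 and 7.21 FPKM in proximal organoids with 0 reads in all distal libraries, at least 742-fold lower in distal organoids (log2 difference -3.48 ± 0.16 SE, adjusted p = 4.9e-10). Tbx3, a T-box repressor, was at 6.94, 5.41 and 5.25 FPKM in proximal and 0.00743, 0 and 0.0253 FPKM in distal organoids (log2 difference -2.76 ± 0.11 SE, adjusted p = 5.69e-11). Zfp503, a zinc finger gene, went from 6.29, 6.66 and 6.32 to 0.199, 0.329 and 0.438 FPKM (-2.49 ± 0.11). All 3 were thus below 0.5 FPKM in every distal library.

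The caudal-type genes that specify intestine differed from each other. Cdx2 stood at 122, 86.1 and 80.7 FPKM in proximal and 30.1, 27.3 and 13.5 FPKM in distal organoids, lower in all 3 distal libraries than in any proximal one (log2 difference -2.03 ± 0.24 SE, adjusted p = 3e-05). Cdx1, chosen after its values were seen, was at 77.5, 37.3 and 37.6 against 97.1, 115 and 74.8 FPKM, a difference the other way with overlapping groups (log2 difference 0.97 ± 0.24 SE, adjusted p = 0.0165), but it was not called without proximal replicate 2 or 3 or distal replicate 1 or 2 (adjusted p = 0.0509 to 0.0973). Isx, an intestinal homeobox repressor of carotenoid uptake, was at 144, 133 and 135 against 66.1, 93.6 and 50.3 FPKM (log2 difference -1.01 ± 0.19 SE, adjusted p = 0.00239). Of 19 forkhead factors tested, 6 were higher and 0 lower in distal organoids by limma (5.81% and 5.49% of all tested genes were), and the counts at an unadjusted p under 0.05 were also 6 and 0. In 4 of the 6 no proximal library reached 1 FPKM. Foxa2, a pioneer factor of endoderm, was at 0.407, 0.234 and 0.252 against 7.88, 7.78 and 5.12 FPKM (log2 difference 2.59 ± 0.22 SE, adjusted p = 6.08e-07). Foxd2 was at 0.447, 0.0893 and 0.0461 against 4.94, 6.10 and 4.10 FPKM (2.34 ± 0.19). Foxn1, Foxl2, Foxa3 and Foxp1, named after their values were seen, differed by 1.71, 1.23, 0.78 and 0.78. Meis3, a TALE homeobox partner of Hox proteins chosen in the same way, was lower in distal organoids, at -1.11 ± 0.25, and was not called without proximal replicate 2 (adjusted p = 0.0521). When only the 6 libraries were fitted, the calls of Cdx1, Isx, Foxl2 and Meis3 were lost (adjusted p up to 0.134).

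Glycosyltransferases, which build the sugar chains of mucins, glycolipids and the cell coat, differed in both directions. Of 37 tested, 13 were higher (5.81% of all tested genes were) and 10 lower (5.49%), with a median difference of 0.11 against 0.02 over all tested genes. B3galt5 (ENSMUSG00000074892, chromosome 16, 96037001 to 96121059), which adds galactose to form type 1 chains, was at 1.47, 0.165 and 0.136 FPKM in proximal and 24.8, 46.8 and 40.5 FPKM in distal organoids (log2 difference 4.64 ± 0.29 SE, adjusted p = 2.45e-08). B3gnt5, which starts the lacto-series glycolipids, was at 0.260, 0.490 and 0.506 against 15.5, 13.1 and 9.24 FPKM (log2 difference 3.24 ± 0.17 SE, adjusted p = 2.36e-09). Every distal library exceeded every proximal library in both. B3gnt7, an N-acetylglucosaminyltransferase, differed by 2.79 ± 0.52, with distal values of 15.1, 28.8 and 4.80 FPKM that spread widely, and St6galnac6, a sialyltransferase, by 1.93 ± 0.21. The call of B3gnt7 was lost by limma-voom on the 6 libraries (adjusted p = 0.0806).

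In the other direction B4galnt2, which makes the Sda blood group sugar, was at 52.2, 28.8 and 24.4 FPKM in proximal and 2.97, 0.805 and 1.88 FPKM in distal organoids (log2 difference -3.64 ± 0.62 SE, adjusted p = 0.0009). St6gal1, which caps N-glycans with sialic acid, was at 6.03, 12.5 and 14.3 against 0.681, 0.476 and 2.99 FPKM (log2 difference -2.40 ± 0.35 SE, adjusted p = 0.00019). Neither gene's groups overlapped. Sialyltransferases were thus found on both sides, as St6galnac6, St6galnac4 and St3gal6 were higher and St6gal1 and St3gal1 lower in distal organoids (St6galnac4, St3gal6 and St3gal1 are named after their values were seen). The call of St3gal1 was lost without proximal replicate 2 or 3 or distal replicate 1 or 3 (adjusted p = 0.0516 to 0.137), without the filter (0.0505) and when only the 6 libraries were fitted (up to 0.0629).

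Genes of fluid and salt transport were called in both directions. Of 24 sodium uptake genes 7 were higher and 1 lower (5.81% and 5.49% of all tested genes were), of 35 chloride, bicarbonate and potassium genes 5 were higher and 6 lower, and of 9 carbonic anhydrases and aquaporins 4 were higher and 2 lower. Their medians were 0.10, -0.21 and 0.82, and no difference between the lists was tested. Of the 8 sodium uptake genes called, 5 passed the filter through 1 region only. The sodium list had 2 lower genes without proximal replicate 1 or distal replicate 3, and the chloride list 3 higher genes without proximal replicate 3 or distal replicate 1. Clic6 (ENSMUSG00000022949, chromosome 16, 92282624 to 92338131), of the chloride intracellular channel family, was at 0.0329, 0.0473 and 0.0763 FPKM in proximal and 25.1, 29.4 and 29.0 FPKM in distal organoids (log2 difference 4.77 ± 0.10 SE, adjusted p = 2.61e-14). Fxyd4, an aldosterone-induced regulator of the sodium pump, was at 0.0329, 0.118 and 0.244 against 10.9, 9.21 and 9.12 FPKM (log2 difference 3.25 ± 0.24 SE, adjusted p = 1.15e-07). Atp12a, the colonic proton and potassium pump, was at 0.0480, 0 and 0 against 9.98, 6.63 and 2.21 FPKM (log2 difference 2.67 ± 0.47 SE, adjusted p = 0.00128). All 3 were near 0 in proximal organoids, and the distal replicates of Atp12a differed more among themselves than those of the other pair. The call of Atp12a was lost by limma-voom on the 6 libraries (adjusted p = 0.059).

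Hsd11b2, which inactivates glucocorticoid and so leaves the mineralocorticoid receptor to aldosterone, was higher by 1.48 ± 0.31 and Atp1b1, a sodium pump subunit, by 1.33 ± 0.29. The single lower gene of the sodium list was Fkbp5, an immunophilin induced by glucocorticoid, at 10.2, 7.07 and 5.70 FPKM in proximal and 0.749, 0.535 and 0.650 FPKM in distal organoids (log2 difference -2.37 ± 0.34 SE, adjusted p = 0.000164). Aqp8, a water channel of surface colonocytes, was at 0, 0.527 and 0.302 against 12.4, 6.56 and 11.5 FPKM (log2 difference 3.10 ± 0.32 SE, adjusted p = 5.55e-06). Aqp4 was at 7.56, 3.58 and 4.40 against 63.3, 48.4 and 18.6 FPKM (log2 difference 2.73 ± 0.53 SE, adjusted p = 0.00274). Both water channels were higher in every distal than in any proximal library, and Aqp1, the only other aquaporin tested, was not called (0.82 ± 0.61). The call of Atp1b1 was lost when only the 6 libraries were fitted (adjusted p up to 0.0806).

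Cftr, the apical chloride channel of secretion, stood at 15.4, 18.1 and 17.3 FPKM in proximal and 5.09, 1.38 and 4.93 FPKM in distal organoids (log2 difference -2.02 ± 0.39 SE, adjusted p = 0.00239). Prkg2, the kinase through which guanylin acts on Cftr, was lower as well (-1.73 ± 0.27), as was Guca2a, guanylin itself (-1.54 ± 0.31), whereas Slc12a2, which loads chloride from the blood side, was higher at 44.6, 49.2 and 53.2 against 106, 113 and 94.2 FPKM (log2 difference 1.08 ± 0.29 SE, adjusted p = 0.0262). Leaving out any one library except distal replicate 3 ended the call of Slc12a2 (adjusted p = 0.0611 to 0.0914). Carbonic anhydrases were divided too. Car8, a family member without catalytic activity, was at 10.1, 15.4 and 15.1 against 1.61, 0.695 and 1.64 FPKM (log2 difference -2.66 ± 0.23 SE, adjusted p = 7.97e-07) and Car12 differed by -1.84 ± 0.24, while Car2 was at 246, 219 and 214 against 521, 899.6 and 486 FPKM (log2 difference 1.43 ± 0.24 SE, adjusted p = 0.000839). Car1, a cytosolic carbonic anhydrase of colonocytes, was at 1170.5, 371 and 247 against 2105, 1535 and 1258 FPKM (log2 difference 1.75 ± 0.42 SE, adjusted p = 0.0127), with proximal replicate 1 close to the lowest distal library. The call of Car1 was lost without proximal replicate 2, proximal replicate 3 or distal replicate 1 (adjusted p = 0.0586 to 0.0815). The calls of Guca2a and Car1 were lost when only the 6 libraries were fitted (adjusted p up to 0.144), and that of Slc12a2 was lost by limma-voom on 18 libraries and with scaling to summed reads (up to 0.0864).

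Genes of antimicrobial and mucosal defence were mostly higher in distal organoids where they were called. Of 47 tested, 17 were higher (5.81% of all tested genes were) and 2 lower (5.49%), with a median of 0.33, and over the 18 alternatives the higher count ranged from 9 to 17. Of the 19 called genes 8 passed the filter through 1 region only, and without distal replicate 2 there was 1 lower gene. Nox1 (ENSMUSG00000031257, chromosome X, 132987170 to 133122705), the epithelial NADPH oxidase that makes superoxide, was at 5.62, 1.23 and 1.86 FPKM in proximal and 25.6, 35.4 and 21.9 FPKM in distal organoids (log2 difference 3.01 ± 0.33 SE, adjusted p = 1.38e-05). Cxcl5, a chemokine that draws neutrophils, was at 0.276, 0.596 and 0.417 against 13.8, 20.7 and 18.2 FPKM (log2 difference 3.69 ± 0.40 SE, adjusted p = 1.03e-05). Ccl28, a chemokine for antibody-secreting cells, was at 0.797, 0.325 and 0.247 against 7.503, 7.31 and 6.45 FPKM (log2 difference 2.49 ± 0.18 SE, adjusted p = 9.6e-08). In these 3 genes every distal value lay above all proximal values, and proximal replicate 1 was the highest proximal library for Nox1 and Ccl28.

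Lypd8, which keeps flagellated bacteria away from the epithelium, was abundant in both regions, at 284, 192 and 192 FPKM in proximal and 1085, 549 and 1457 FPKM in distal organoids (log2 difference 2.12 ± 0.36 SE, adjusted p = 0.000936). Tgm3, a transglutaminase, was at 0, 0.0112 and 0 against 13.5, 4.01 and 3.61 FPKM (log2 difference 2.79 ± 0.34 SE, adjusted p = 3.13e-05). Reg4, a secreted lectin, differed by 2.83 ± 0.64 and Saa1, serum amyloid A, by 1.90 ± 0.50, a call lost without proximal replicate 2 or 3 or distal replicate 2 or 3 (adjusted p = 0.0515 to 0.0782). The lower genes were Tgm2, a tissue transglutaminase named after its values were seen, at -1.43 ± 0.33, and S100a9, a calprotectin subunit, at -1.63 ± 0.28. Of 9 gasdermins, pore-forming proteins, 2 were higher and 0 lower by limma (3 and 0 at an unadjusted p under 0.05), where 5.81% and 5.49% of all tested genes were. Of the 2 called genes 1 passed the filter through 1 region only. Gsdmc4 was at 0.586, 0.111 and 0.143 against 35.8, 42.7 and 10.6 FPKM (log2 difference 4.39 ± 0.62 SE, adjusted p = 0.000161). Gsdmc2 was at 3.45, 0.739 and 0.103 against 29.7, 23.5 and 9.30 FPKM (log2 difference 3.28 ± 0.73 SE, adjusted p = 0.00754). These 2 are members of 1 gene cluster of similar sequence, so reads may have been divided between copies, and distal replicate 3 was the lowest distal library in both. The call of Gsdmc2 was lost by limma-voom on the 6 libraries (adjusted p = 0.0541) and on 18 (0.0938). When only the 6 libraries were fitted, the calls of Reg4, Saa1, Tgm2 and S100a9 were lost (adjusted p up to 0.0611), and that of Tgm2 was also lost without distal replicate 2 (0.0503).

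**Figure D3:**
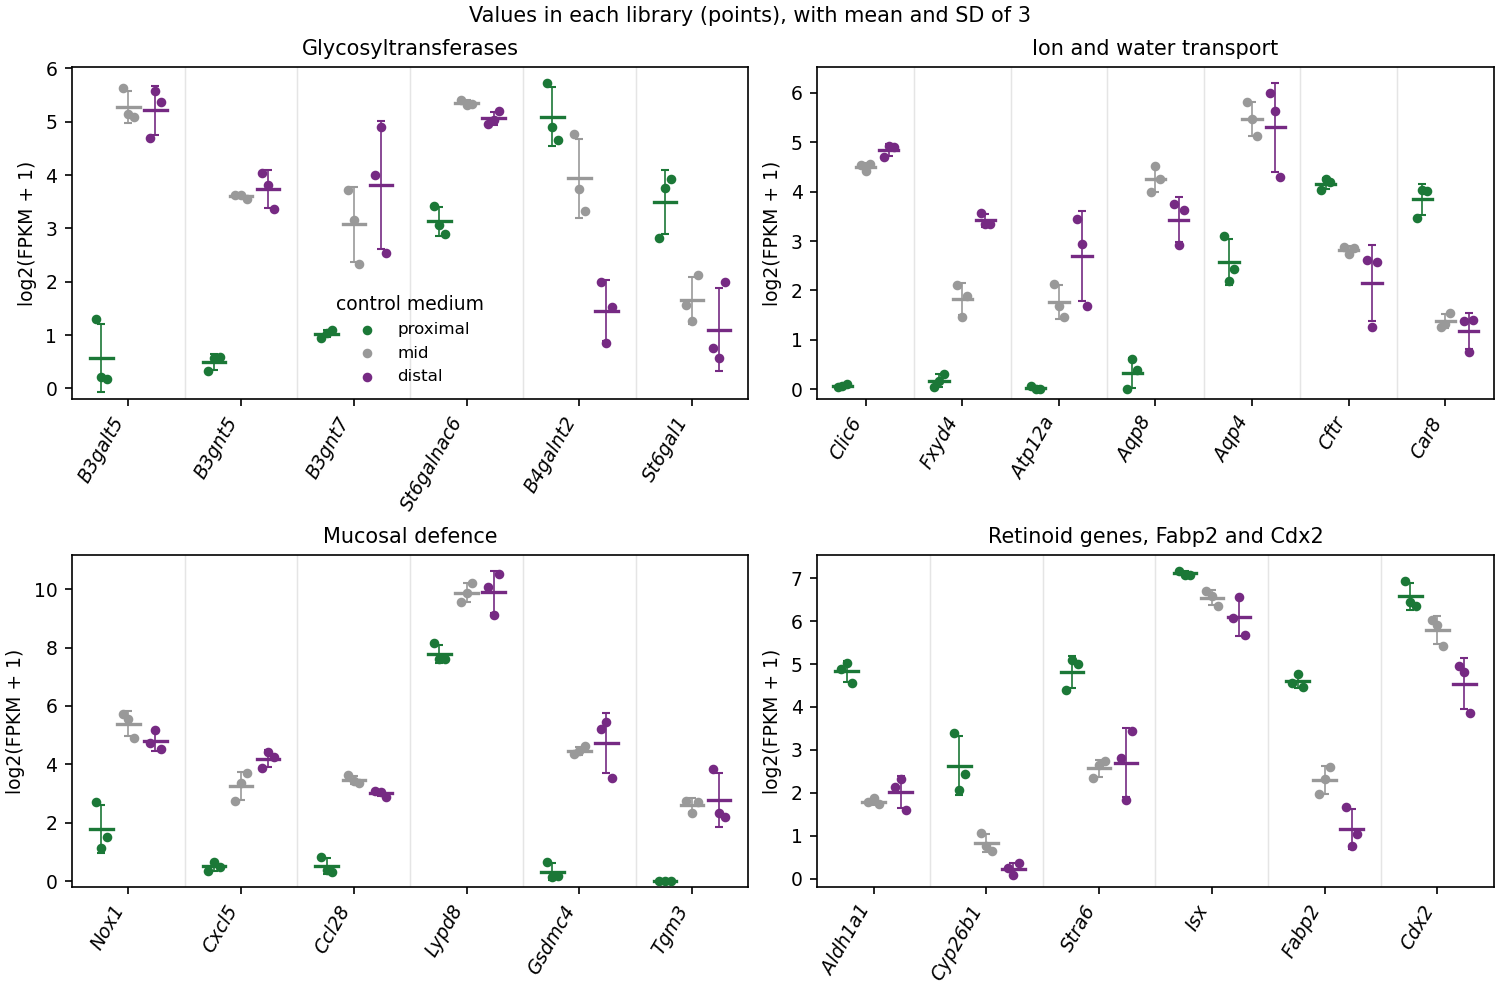
Levels of named genes of 4 roles on the log2(FPKM + 1) scale in proximal (green), mid (grey) and distal (purple) organoids, with 1 point per library and the mean and SD of 3. Clic6, Fxyd4, Atp12a and Aqp8 are near 0 in proximal organoids, B4galnt2, St6gal1, Cftr and Car8 are higher there, and the mid points lie nearer the distal ones for most genes.

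Of 16 genes of retinoid metabolism tested, 5 were lower in distal organoids (5.49% of all tested genes were) and 1 was higher (5.81%), with a median of -0.26. Of the 6 called genes 2 passed the filter through 1 region only. Retinoic acid, made from vitamin A by oxidation, is known to pattern the gut and to act on its immune cells. Aldh1a1, which oxidises retinal to retinoic acid, was at 28.6, 31.8 and 22.8 FPKM in proximal and 3.37, 3.98 and 2.04 FPKM in distal organoids (log2 difference -2.82 ± 0.26 SE, adjusted p = 2.17e-06). Stra6, a receptor that takes up retinol, was at 20.0, 32.9 and 30.8 against 6.07, 2.58 and 9.92 FPKM (log2 difference -2.12 ± 0.28 SE, adjusted p = 9.44e-05). Cyp26b1, which degrades retinoic acid, was at 9.58, 3.17 and 4.44 against 0.184, 0.0625 and 0.282 FPKM (log2 difference -2.41 ± 0.27 SE, adjusted p = 1.69e-05). The groups did not overlap in any of these 3 genes, and the other lower genes were Stra6l, a retinol receptor (-0.95 ± 0.15), and Isx. The exception was Dhrs3, a retinal reductase and the only higher gene of the list, at 0.56 ± 0.16, whose call was lost without proximal replicate 2 or 3 or distal replicate 1 or 2 (adjusted p = 0.0719 to 0.154). The calls of Isx, Stra6l and Dhrs3 were lost when only the 6 libraries were fitted (adjusted p up to 0.0814), and without proximal replicate 1 the list had 2 higher genes.

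Fabp2 (ENSMUSG00000023057, chromosome 3, 122688721 to 122693155), which carries fatty acids in enterocytes, stood at 22.7, 26.4 and 21.2 FPKM in proximal and 2.19, 0.693 and 1.04 FPKM in distal organoids (log2 difference -3.45 ± 0.29 SE, adjusted p = 7.73e-07). In the small intestine list, which holds Fabp2, 2 of 13 tested were higher and 2 lower (5.81% and 5.49% of all tested genes were). Higher genes numbered 1 without proximal replicate 2 or 3 or distal replicate 1, and lower genes 1 without proximal replicate 1 or distal replicate 1 or 2. Alpi, intestinal alkaline phosphatase, was the other lower gene (-1.65 ± 0.43), a call lost without proximal replicate 1, distal replicate 1 or distal replicate 2 (adjusted p = 0.0722 to 0.0752). Slc5a1, the sodium and glucose transporter, was higher at 5.75, 1.61 and 1.14 against 11.5, 12.6 and 7.01 FPKM (log2 difference 1.73 ± 0.38 SE, adjusted p = 0.00694). Among nutrient and solute transporters 9 of 60 were higher and 6 lower. Slc6a14, an amino acid transporter, was at 1.78, 1.603 and 1.15 against 22.2, 16.1 and 12.7 FPKM (log2 difference 2.82 ± 0.35 SE, adjusted p = 3.93e-05). Slc20a2, a phosphate transporter, was at 17.3, 29.0 and 28.8 against 9.11, 8.07 and 8.38 FPKM (log2 difference -1.42 ± 0.18 SE, adjusted p = 5.01e-05). When only the 6 libraries were fitted, the calls of Alpi and Slc5a1 were lost (adjusted p up to 0.0993).

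Signalling genes differed in ligands and receptors of several pathways. In the list of FGF, Hedgehog, ephrin and guidance genes, 9 of 31 were higher and 4 lower (5.81% and 5.49% of all tested genes were). Of the 13 called genes 3 passed the filter through 1 region only. The higher count was 5 without proximal replicate 2 or 3, and the lower count was 2 without proximal replicate 2 or 3 or distal replicate 2 and 7 without distal replicate 3. Ihh, the Hedgehog ligand of colonocytes, was at 10.4, 3.96 and 3.98 FPKM in proximal and 30.7, 48.5 and 23.9 FPKM in distal organoids (log2 difference 2.37 ± 0.32 SE, adjusted p = 9.33e-05). Fgfr2, an FGF receptor, was higher by 1.67 ± 0.24, and Fgf15, a hormone-like FGF, was lower from 1.07, 1.71 and 1.37 to 0.177, 0.0156 and 0 FPKM (log2 difference -1.16 ± 0.18 SE, adjusted p = 0.000482). For Ihh proximal replicate 1 was the highest proximal library, though below every distal one.

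Of 11 Wnt ligands, receptors and modulators 1 was higher and 3 lower (5.81% and 5.49% of all tested genes were). Of the 4 called genes 1 passed the filter through 1 region only. Wnt7b, an epithelial Wnt ligand, was at 22.01, 42.8 and 44.4 FPKM in proximal and 6.46, 7.17 and 14.4 FPKM in distal organoids (log2 difference -1.87 ± 0.43 SE, adjusted p = 0.0089). Porcn, the acyltransferase that Wnt secretion needs, was at 4.57, 7.94 and 8.60 against 1.33, 1.004 and 1.603 FPKM (log2 difference -1.77 ± 0.20 SE, adjusted p = 1.87e-05). The receptors went apart, with Fzd7 at 0.86 ± 0.16 and Fzd2 at -0.99 ± 0.13. Ligands of Notch were also divided, as Jag1 was at 26.1, 30.2 and 32.4 against 7.36, 6.31 and 15.3 FPKM (log2 difference -1.61 ± 0.29 SE, adjusted p = 0.00137) and Dll4 differed by 1.05 ± 0.18. Tgfbr2, the type II receptor of TGF-beta, was at 54.5, 76.6 and 76.4 against 18.95, 19.05 and 26.8 FPKM (log2 difference -1.64 ± 0.17 SE, adjusted p = 6.77e-06). Id1, a target of BMP signals, was at 9.81, 8.22 and 6.75 against 29.0, 22.9 and 34.5 FPKM (log2 difference 1.68 ± 0.17 SE, adjusted p = 6.29e-06). These were the called genes of 26 in the BMP and TGF-beta list, but the count depended on single libraries. Without distal replicate 3 there were 5 lower genes, without distal replicate 2 there were 3 higher, and without proximal replicate 1 there were 2 in each direction. Ereg, an EGF receptor ligand, was at 11.6, 10.97 and 12.4 against 3.29, 1.35 and 2.19 FPKM (log2 difference -1.99 ± 0.21 SE, adjusted p = 9.03e-06).

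Cell type lists held calls in both directions. Of 31 goblet cell and mucus genes 10 were higher and 2 lower (5.81% and 5.49% of all tested genes were). Muc1, a membrane mucin, was at 0.0548, 0.138 and 0 FPKM in proximal and 15.3, 55.3 and 3.22 FPKM in distal organoids (log2 difference 3.88 ± 0.64 SE, adjusted p = 0.000645). Spink4, a goblet cell protein, was at 3.37, 3.59 and 2.63 against 23.4, 13.9 and 27.4 FPKM (log2 difference 2.38 ± 0.33 SE, adjusted p = 0.00012). Muc2, the main secreted mucin of goblet cells, did not pass the test, at 6.997, 1.55 and 2.52 against 0.559, 1.02 and 1.82 FPKM (log2 difference -1.005 ± 0.36 SE, adjusted p = 0.0891). Of 35 colonocyte genes 9 were higher (5 without proximal replicate 3) and 5 lower, and Krt20, a keratin of mature surface cells, was at 56.5, 41.3 and 34.3 against 21.8, 6.82 and 60.1 FPKM (log2 difference -0.99 ± 0.51 SE, adjusted p = 0.256). Pyy, a hormone of enteroendocrine cells, was the 1 called gene of 5 tested in that list (2 without proximal replicate 3), at 0, 0 and 0.189 against 5.23, 2.20 and 9.04 FPKM (log2 difference 2.46 ± 0.37 SE, adjusted p = 0.000257). Pyy passed the filter through the distal region only. In Krt20 distal replicate 3 exceeded every proximal library while distal replicate 2 was the lowest of all 6. The call of Muc1 was lost by limma-voom on the 6 libraries (adjusted p = 0.249).

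Of 22 crypt genes 3 were higher and 1 lower (5.81% and 5.49% of all tested genes were), with a median of -0.19. Of the 4 called genes 1 passed the filter through 1 region only. The higher count was 1 without proximal replicate 2 or 3 or distal replicate 1, and the lower count was 3 without distal replicate 3 and 0 without proximal replicate 2 or 3 or distal replicate 2. Lgr5, the receptor of crypt base stem cells, was at 3.39, 2.92 and 2.998 FPKM in proximal and 3.13, 3.06 and 2.65 FPKM in distal organoids (log2 difference -0.06 ± 0.10 SE, adjusted p = 0.798), and the groups overlapped. Prom1, a stem and progenitor surface protein, was lower (-0.93 ± 0.22), a call lost without proximal replicate 2 or 3 or distal replicate 2 (adjusted p = 0.0504 to 0.0669) and with a replicate block in the 6 libraries (0.0699). Smoc2, a crypt base matrix protein, was higher from 0.731, 0.672 and 0.464 to 1.86, 1.88 and 1.81 FPKM (log2 difference 0.82 ± 0.12 SE, adjusted p = 0.000156). Proliferation lists had high medians and few calls. Of 47 DNA replication genes 2 were higher and 0 lower by limma (13 and 0 at an unadjusted p under 0.05), and of 48 mitosis genes 1 was higher and 0 lower (12 and 0), with medians of 0.53 and 0.79 against 0.02 over all tested genes. Limma-voom on the recovered reads of 18 libraries called 3 replication and 0 mitosis genes higher. Mki67, which marks cycling cells, was at 19.3, 10.4 and 8.81 against 21.2, 39.3 and 16.3 FPKM (log2 difference 0.92 ± 0.59 SE, adjusted p = 0.387). Proximal replicate 1 exceeded the other proximal libraries in it and overlapped the distal range, and without that library 7 replication and 5 mitosis genes were called higher. Leaving out any other single library gave 0 to 3 and 0 to 1. Mean log2(FPKM + 1) over the 48 mitosis genes was 3.31, 2.45 and 2.18 in proximal and 3.19, 3.81 and 3.18 in distal replicates, and what part this level has in the other differences was not tested.

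Known region markers of the colon were followed in part. Of 18 distal markers tested 10 were higher and 1 lower (5.81% and 5.49% of all tested genes were), and of 21 proximal markers 5 were lower and 4 higher in distal organoids. Of the called markers, 6 of 11 and 4 of 9 passed the filter through 1 region only. The distal marker that went against its name was Sptssb, a subunit of serine palmitoyltransferase, at 35.2, 21.2 and 19.4 FPKM in proximal and 0.297, 0.0785 and 1.19 FPKM in distal organoids (log2 difference -4.13 ± 0.47 SE, adjusted p = 1.78e-05). Adh1, class I alcohol dehydrogenase, was the proximal marker that differed most against its name, at 0.490, 0.870 and 0.348 against 46.3, 77.8 and 14.6 FPKM (log2 difference 4.64 ± 0.56 SE, adjusted p = 3.49e-05). It was joined by Muc13, a membrane mucin, at 68.3, 25.4 and 29.8 against 167, 153 and 97.6 FPKM (log2 difference 1.83 ± 0.34 SE, adjusted p = 0.00194), by Car1, and by Ggh, a folate hydrolase named after its values were seen, at 1.12 ± 0.28, whose call was lost without proximal replicate 1 or distal replicate 3 (adjusted p = 0.0563 to 0.0604). The other called members of both lists include Hox genes, Osr2, B3galt5, Aqp8 and Fabp2, whose values are given above. The calls of Car1 and Ggh were lost when only the 6 libraries were fitted (adjusted p up to 0.144).

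**Figure D4:**
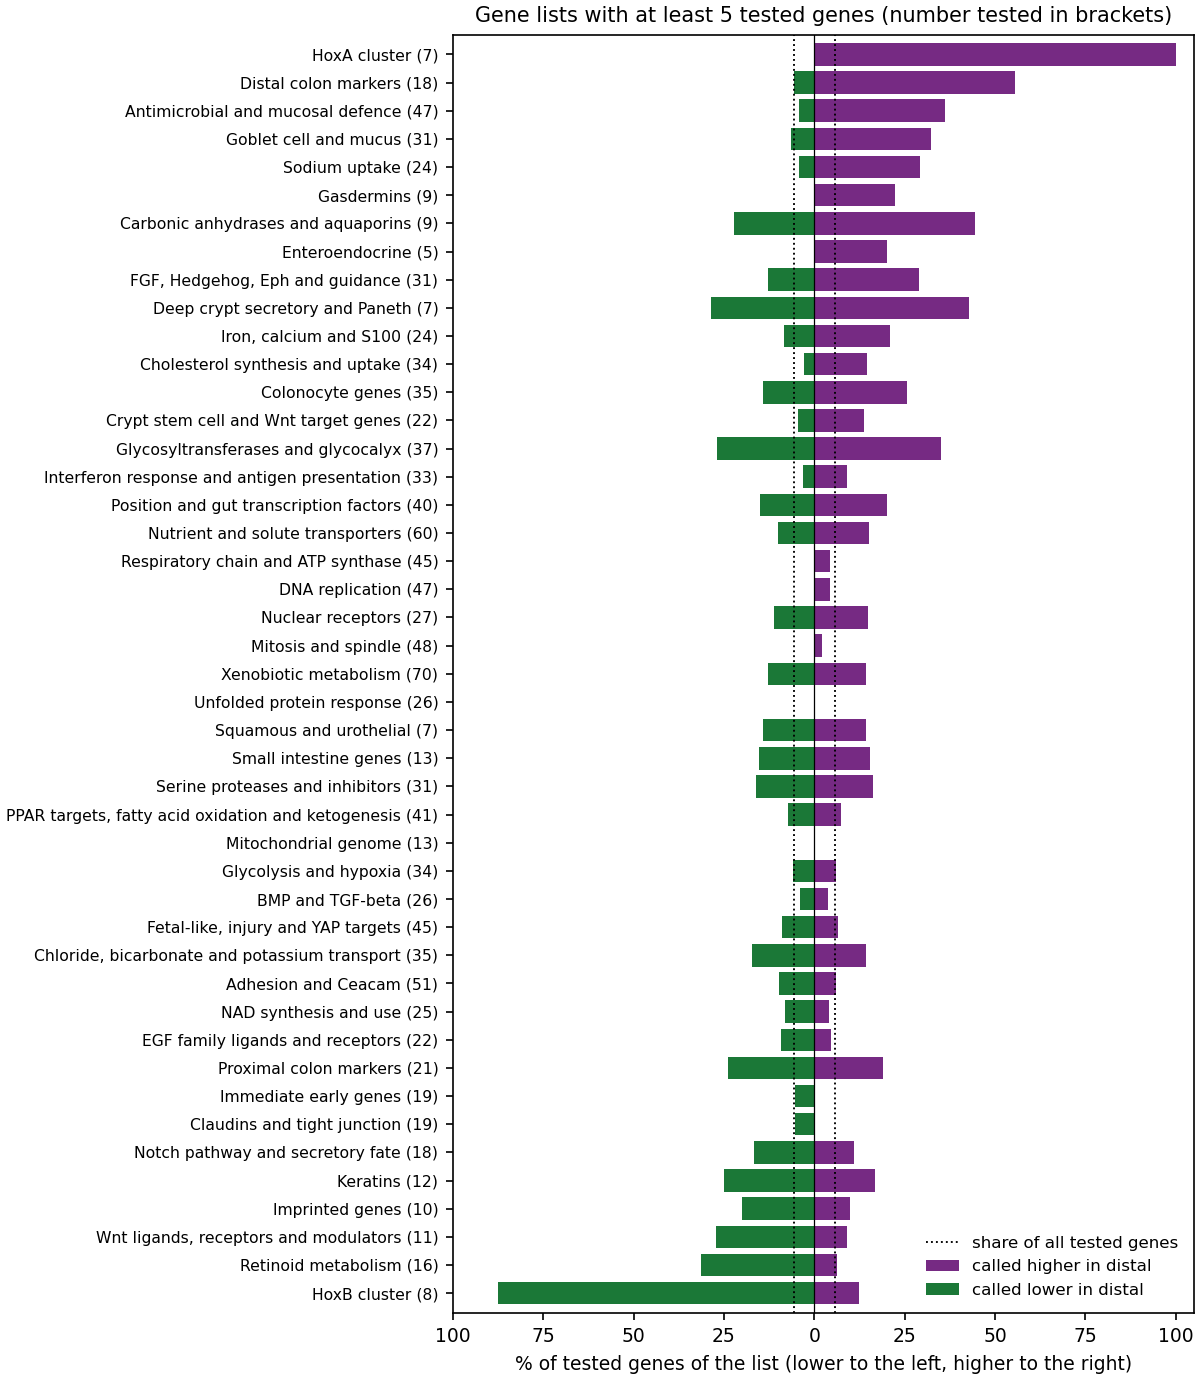
Share of tested genes called higher (purple, to the right) or lower (green, to the left) in distal organoids, in % of each list, for the lists with at least 5 tested genes; brackets give the number tested and dotted lines the shares over all tested genes, 5.81% and 5.49%. The HoxA list lies at 100% higher, and the HoxB and retinoid lists have the largest lower shares, 87.5% and 31.2%. All 7 HoxA genes, 7 of 8 HoxB genes and 2 of 16 retinoid genes passed the filter through 1 region only. Their shares are therefore a description.

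Metabolic lists varied in their share of calls. Of 70 genes of xenobiotic metabolism 10 were higher (14.3%) and 9 lower (12.9%), where 5.81% and 5.49% of all tested genes were, and 9 of these 19 passed the filter through 1 region only. The higher count was 6 without proximal replicate 2 or distal replicate 2 and 4 without proximal replicate 3. The called genes included Cyp4f14 at -1.87 ± 0.34 and Mgst1, a microsomal glutathione transferase, at -1.86 ± 0.27. Of 45 nuclear genes of the respiratory chain 2 were higher and 0 lower by limma (15 and 0 at an unadjusted p under 0.05), with a median of 0.31, and 0 were higher without proximal replicate 2 or 3 or distal replicate 2 and 1 without distal replicate 1 or 3. Of the 13 mitochondrial genome genes 0 were called (1 higher at an unadjusted p under 0.05, median 0.36), and of 26 unfolded protein response genes 0 were called by limma (5 higher at an unadjusted p under 0.05, median 0.37), while limma-voom on the recovered reads called 0 and 1 with all 18 libraries and 0 and 0 with 6. In the unfolded protein response list distal replicate 1 stood apart, at a mean log2(FPKM + 1) of 5.32 over the list's 28 genes, whereas distal replicates 2 and 3 were at 4.26 and 4.08 and proximal replicates at 4.39, 4.26 and 4.21. Of this list 1 gene was called higher without proximal replicate 1, 1 without distal replicate 2 and 2 without distal replicate 3. Of 34 cholesterol synthesis and uptake genes 5 were higher and 1 lower. Idi1 and Mvd, enzymes early in the pathway, differed by 0.69 ± 0.17 and 0.61 ± 0.18. Without proximal replicate 2 or 3 or distal replicate 2 both calls were lost (adjusted p = 0.0663 to 0.0961 for Idi1 and 0.0533 to 0.187 for Mvd, which was also lost without distal replicate 1 or 3). The list's count depended on single libraries: without proximal replicate 1 there were 17 higher, without distal replicate 3 there were 2, and without proximal replicate 2 or 3 or distal replicate 2 there was 1. Oxygen-sensing factors differed in opposite directions. Hif1a was at 12.3, 13.7 and 13.9 against 21.5, 26.3 and 24.3 FPKM (log2 difference 0.80 ± 0.15 SE, adjusted p = 0.00241). Epas1, or HIF-2 alpha, was at 8.30, 7.65 and 8.77 against 1.498, 2.27 and 2.64 FPKM (log2 difference -1.58 ± 0.17 SE, adjusted p = 1.05e-05). Of 25 genes of NAD synthesis and use 1 was higher (0 without proximal replicate 2 or 3 or distal replicate 1 or 2) and 2 lower (1 without proximal replicate 2 or 3 or distal replicate 2), and Nmnat2, an enzyme of the last step of NAD synthesis, was at 1.59, 4.17 and 4.22 against 0.264, 0.0331 and 0.677 FPKM (log2 difference -1.67 ± 0.28 SE, adjusted p = 0.000895). Of the 3 called NAD genes 1 passed the filter through 1 region only. When only the 6 libraries were fitted, the calls of Cyp4f14, Idi1 and Mvd were lost (adjusted p up to 0.1797).

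Keratins and genes of the fetal-like state were called in both directions. Of 12 keratins 2 were higher and 3 lower (5.81% and 5.49% of all tested genes were), with 5 lower without distal replicate 3. Krt7, a keratin of ductal epithelia, was at 328, 720.2 and 669 FPKM in proximal and 201, 114 and 300.1 FPKM in distal organoids (log2 difference -1.503 ± 0.39 SE, adjusted p = 0.0205). Krt23, another epithelial keratin, was at 43.8, 60.3 and 71.1 against 15.8, 13.9 and 12.3 FPKM (log2 difference -1.97 ± 0.28 SE, adjusted p = 0.000149). The call of Krt7 was lost without proximal replicate 2 or 3 or distal replicate 2 (adjusted p = 0.0954 to 0.113). Of 45 fetal-like, injury and YAP target genes 3 were higher and 4 lower. Spp1, osteopontin, was at 16.2, 7.05 and 14.5 against 71.4, 257 and 162 FPKM (log2 difference 3.49 ± 0.45 SE, adjusted p = 6.25e-05). Vsig1, an adhesion protein, was at 0.465, 0.485 and 0.453 against 9.73, 7.98 and 9.58 FPKM (log2 difference 2.78 ± 0.11 SE, adjusted p = 4.51e-11), whereas Emp1, an epithelial membrane protein, was lower (-1.82 ± 0.41). Ly6a and Clu, known from fetal-like and revival states, were not called. Ly6a was at 704, 956 and 1043 against 809, 476 and 973 FPKM (log2 difference -0.30 ± 0.25 SE, adjusted p = 0.529). Clu was at 515, 1525 and 1497 against 476, 253 and 1703 FPKM (log2 difference -0.84 ± 0.66 SE, adjusted p = 0.495). For Clu proximal replicate 1 was the lowest proximal and distal replicate 3 the highest distal library. Fn1, fibronectin, had its highest value in the same distal library, at 38.9, 95.6 and 130.3 against 30.02, 14.7 and 321 FPKM (log2 difference -0.56 ± 0.91 SE, adjusted p = 0.776). Without distal replicate 2 the log2 difference of Fn1 was 0.33 (adjusted p = 0.914), of the other sign. Cldn2, a leaky claudin of crypts, was the 1 called gene of 19 claudins and tight junction genes, at 22.1, 20.0 and 18.3 against 5.94, 7.65 and 7.67 FPKM (log2 difference -1.39 ± 0.38 SE, adjusted p = 0.0274), a call lost without any one library except distal replicate 3 (adjusted p = 0.0648 to 0.0932) and without the filter or with a pseudocount of 0.1 FPKM (up to 0.248). The claudin list had 2 lower genes without distal replicate 3, and 1 higher without proximal replicate 1 or distal replicate 3. The calls of Krt7 and Emp1 were lost when only the 6 libraries were fitted (adjusted p up to 0.126).

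Several of the largest differences lay outside these lists. Among the 30 genes with the largest differences in the higher direction, with at least 5 FPKM in the higher group and no overlap, differences ran from 3.20 to 6.05, and among the 30 in the lower direction from 2.49 to 5.01 in size. Aldh1l1, a folate enzyme, was at 0.114, 0.0205 and 0.0661 FPKM in proximal and 22.5, 18.5 and 26.3 FPKM in distal organoids (log2 difference 4.44 ± 0.21 SE, adjusted p = 4.81e-10). Cdo1, which oxidises cysteine, was at 0.274, 0.253 and 0.327 against 35.1, 33.7 and 14.9 FPKM (log2 difference 4.40 ± 0.29 SE, adjusted p = 4.37e-08). Rdx, radixin, which links the membrane to actin, was at 0.258, 0.420 and 0.303 against 15.6, 16.6 and 16.4 FPKM (log2 difference 3.70 ± 0.11 SE, adjusted p = 1.55e-12). Each of these was below 0.5 FPKM in every proximal library and above 14 FPKM in every distal one. Thbs4, a thrombospondin, differed by 3.96 ± 0.35, Fhl1, a LIM domain protein, by 3.93 ± 0.22, Eno3, the muscle-type enolase, by 3.797 ± 0.27, Trf, transferrin, by 3.20 ± 0.16, and Cma1, a chymase, by 4.16 ± 0.52. Krt90, a keratin, differed by 3.35 ± 0.26, Fam3d, a secreted gut protein, by 3.37 ± 0.35 and Cbr2, a carbonyl reductase, by 3.41 ± 0.49. The call of Cma1 was lost by limma-voom on the 6 libraries (adjusted p = 0.1298).

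On the proximal side Tmem158, a membrane protein, was at 25.6, 61.8 and 66.7 FPKM in proximal and 0.863, 0.865 and 1.47 FPKM in distal organoids (log2 difference -4.56 ± 0.31 SE, adjusted p = 5.66e-08). Nat8l, which makes N-acetylaspartate, was at 13.5, 35.9 and 34.0 against 0.258, 0.107 and 2.72 FPKM (log2 difference -3.94 ± 0.41 SE, adjusted p = 6.56e-06). P2rx2, an ATP-gated channel, was at 16.6, 58.2 and 65.2 against 3.25, 0.241 and 5.997 FPKM (log2 difference -3.62 ± 0.56 SE, adjusted p = 0.000336). In all 3 genes proximal replicate 1 was the lowest of its group, yet above every distal library. Thbs1, a thrombospondin, stood at 84.5, 194 and 194 against 12.3, 3.72 and 63.6 FPKM (log2 difference -3.22 ± 0.70 SE, adjusted p = 0.00668). S100a7a, an S100 protein, was at 101, 279.9 and 255 against 13.8, 7.74 and 42.1 FPKM (log2 difference -3.45 ± 0.54 SE, adjusted p = 0.000432), with distal replicate 3 the highest distal library in both. Among abundant genes Tmsb10, thymosin beta 10, went from 688, 804 and 822 to 355, 219.7 and 361 FPKM (log2 difference -1.34 ± 0.28 SE, adjusted p = 0.00516) and Suox, sulfite oxidase, from 98.2, 90.9 and 99.8 to 24.9, 32.1 and 24.01 FPKM (log2 difference -1.81 ± 0.23 SE, adjusted p = 5.01e-05), while Cd24a, a surface glycoprotein, went from 30.9, 29.7 and 34.0 to 164, 191 and 158 FPKM (log2 difference 2.40 ± 0.19 SE, adjusted p = 4.11e-07). Padi2, a peptidylarginine deiminase, differed by -2.55 ± 0.40, Efemp1, fibulin-3, by -2.54 ± 0.33 and Tmem86a, a lysoplasmalogenase-like membrane protein, by -3.33 ± 0.26. Gm49980, a gene without a known role, had 0 reads in distal organoids and 26.5, 25.4 and 26.5 FPKM in proximal ones, at least 608-fold lower in distal organoids (log2 difference -4.76 ± 0.21 SE, adjusted p = 2.3e-10). In all, 21 called genes had 0 reads in every proximal library and 3 in every distal library. When only the 6 libraries were fitted, the calls of P2rx2 and Thbs1 were lost (adjusted p up to 0.105).

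The remaining lists were read only by their counts, beside 5.81% higher and 5.49% lower among all tested genes. Of 31 serine proteases and inhibitors 5 were higher and 5 lower (3 lower without proximal replicate 2 or 3 or distal replicate 2). Of 27 nuclear receptors 4 were higher (1 without any one of 4 libraries, proximal replicates 2 and 3 and distal replicates 1 and 2) and 3 lower (5 without distal replicate 3, 1 without proximal replicate 2 or 3 and 0 without distal replicate 2). Of 24 iron, calcium and S100 genes 5 were higher (2 or 3 without any one library except distal replicate 3) and 2 lower (1 without any one of the same 4). Of these 7 called genes 3 passed the filter through 1 region only. Of 33 interferon and antigen presentation genes 3 were higher (0 without proximal replicate 2 or 3 or distal replicate 1, and 1 without proximal replicate 1) and 1 lower (0 without proximal replicate 3 or distal replicate 2). Of 51 adhesion genes 3 were higher (5 without distal replicate 2) and 5 lower (9 without distal replicate 3, 3 without proximal replicate 3, and 2 without proximal replicate 2 or distal replicate 1 or 2). Of 41 PPAR target and fatty acid oxidation genes 3 were higher (8 without proximal replicate 1, and 1 without proximal replicate 2 or 3 or distal replicate 2) and 3 lower (1 without distal replicate 2). Of 34 glycolysis and hypoxia genes 2 were higher (6 without proximal replicate 1, and 1 without any other library except distal replicate 3) and 2 lower. Of 10 imprinted genes 1 was higher (0 without proximal replicate 2 or 3) and 2 lower (1 without any one proximal replicate or distal replicate 1). Of 19 immediate early genes 0 were higher and 1 lower by limma (2 and 2 at an unadjusted p under 0.05), with 1 higher without proximal replicate 1 and 3 lower without distal replicate 3. Of 7 squamous and urothelial genes 1 was higher (2 without distal replicate 2) and 1 lower. Of these 2 called genes 1 passed the filter through 1 region only.

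The mid organoids, which entered the contrast between the ends only through the shared estimate of the spread, lay closer to the distal ones. For each of the 589 genes called with a difference of at least 1, the mid level was placed on a line from the proximal mean (0) to that of distal organoids (1), a description without a test. The median position was 0.99, 0.91 and 0.85 in mid replicates 1, 2 and 3, and of the mean of the 3 it was 0.92, with 537 genes nearer the distal and 52 nearer the proximal mean. Hoxd13 and Hoxd10 were exceptions among the Hox genes, with 0 reads in all 3 mid libraries, whereas Hoxb13 was at 65.6, 63.0 and 47.0 FPKM there. Rdx was at 1.39, 1.19 and 1.59 FPKM in mid organoids (position 0.23), and B4galnt2 at 26.2, 12.3 and 9.01 FPKM (position 0.32). Cdx2 lay between the ends at 64.7, 58.8 and 42.004 FPKM (position 0.39). In 216 of the 589 genes (36.7%) the mid mean lay beyond the distal mean, as for Spink4 at 86.8, 45.4 and 56.2 FPKM (position 1.63), Foxd2 at 18.1, 15.2 and 12.1 FPKM (position 1.603) and Pyy at 14.7, 8.02 and 17.9 FPKM (position 1.51), while Clca3b, a chloride channel accessory protein, and Guca2a were on the proximal side at -0.32 and -0.07. The call of Clca3b between the ends was lost without any one library except distal replicate 3 (adjusted p = 0.0542 to 0.0896). The call of Guca2a was lost when only the 6 libraries were fitted (adjusted p up to 0.1098).

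**Figure D5:**
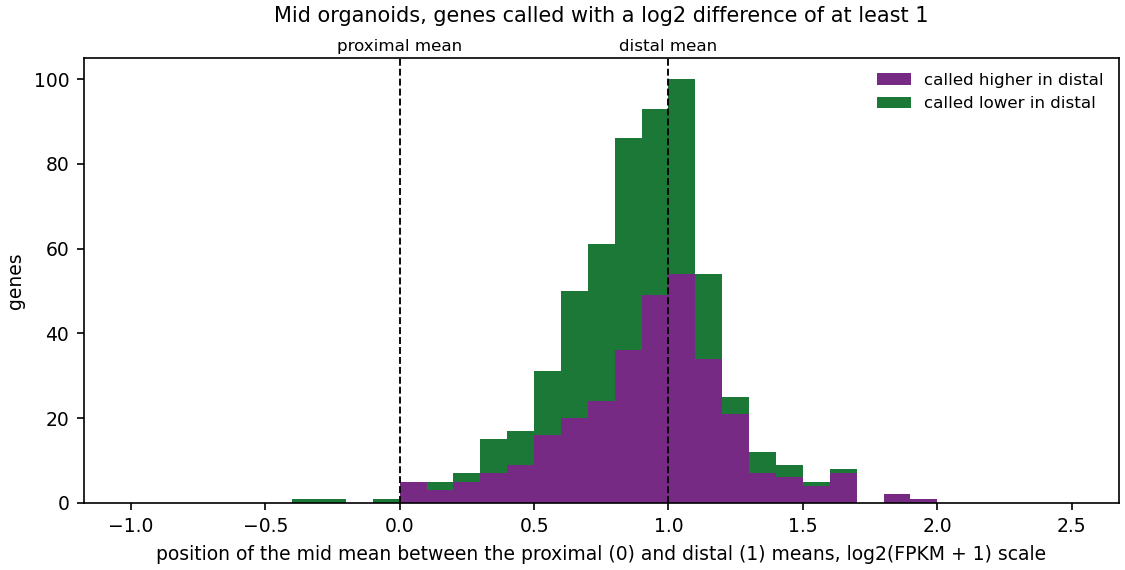
Number of genes by the position of the mid mean on a line from proximal (0) to distal (1) on the log2(FPKM + 1) scale, for the 589 genes called between distal and proximal organoids with a difference of at least 1, with the 310 higher genes in purple and the 279 lower genes in green. Most genes lie near 1, and the median is 0.92.

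The same regions were also compared in differentiation medium, with no library shared between the contrasts. There 3326 genes (28.9%) were called, and 833 genes were called in both media, which is 64.0% of the control calls and 25.05% of the differentiation calls, 813 of them in the same direction and 20 in opposite directions. The difference between the media was itself called (interaction term of the same fit, 6.9% of all tested genes) for 252 of the 1301 control calls, 151 of them smaller and 101 larger in differentiation medium. The 1301 genes were chosen by control values that the interaction contains, which favours both such calls and smaller differences. These counts are therefore a description. Hoxb6 differed by -5.01 in control and -5.16 in differentiation medium, and Cdx2 by -2.03 and -2.11, with interactions of -0.15 (adjusted p = 0.658) and -0.08 (adjusted p = 0.92). Aqp8 differed by 3.10 in control and 11.41 in differentiation medium, with an interaction of 8.31 (adjusted p = 8.2e-08), and Nox1 by 3.01 and 0.39, with an interaction of -2.62 (adjusted p = 0.00387). Idi1 and Mvd were among the 20 genes of opposite direction, at 0.69 and -0.64 and at 0.61 and -1.07, with control calls that single libraries decided, as given above. All 17 Hox genes tested were called in both media with the same direction, and in 8 of them the size of the difference changed between the media.

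At the edge of the expression filter, Parp8 and Aldh3a1 lay just inside, the level reached in at least 3 of the 6 libraries being 1.0002 and 1.0007 FPKM, and Tmem53 and Mutyh just outside, at 0.9994 and 0.9993 FPKM.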

How the data were processed

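Poly-A RNA from 18 organoid libraries (3 regions, 2 media, 3 replicates) was sequenced by a commercial provider, per the labels' protocols. The deposited FPKM values were made by the authors, who named HISAT2 2.0.5, featureCounts 1.5.0-p3 and the mm39 build in the submitters' processing notes, while annotation release and library scaling were not given in the sources used here. Gene lengths deposited with the FPKM values returned whole read numbers for 100% of values (tolerance 0.001 reads), and these gave the depth. All 18 value columns were mapped to samples by name.

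Genes with at least 1 FPKM in 3 of the 6 libraries compared were tested with limma 3.58.1 (R 4.3.3) on log2(FPKM + 1), with 6 group means over all 18 libraries and Benjamini-Hochberg adjustment over 11511 genes (threshold 0.05). On simulated data for this comparison, 66% of 100 genes changed 2-fold and 85% of 100 changed 4-fold were recovered among 11511 genes, with 8 unchanged genes called. Genes were named by a rule: the 30 largest differences per direction among called genes with no overlap and at least 5 FPKM, all Hox genes that passed, the 10 most abundant genes per direction with a log2 difference of at least 1, up to 5 called members per list, and single genes chosen for colon biology. A few genes that the rule or the lists hold are not reported here. The genes compared and the lists were chosen with earlier results of these data known. Folds against 0 reads use a floor of 3 reads over the group. Promoters came from RefSeq (GRCm38.p6). Alternatives changed the pseudocount, filter, scaling, libraries fitted, replicate block and test, and left out each library. Other tools were Python 3.11.15, pandas 2.3.3, numpy 2.4.6, scipy 1.17.1 and matplotlib 3.10.9.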

Additional observations from a re-analysis of the deposited data

Results flagged for a closer look

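Of 66 genes with large differences or in the Hox clusters, 28 differed between the media in the size of their regional difference, by the interaction term of the limma fit (adjusted p under 0.05 over all tested genes). The interaction was called for 6.9% of all tested genes and for 19.4% of the 1301 called in control medium. The 66 genes and the 1301 genes were chosen by control values that the interaction contains, so their shares are a description. All values below are log2 differences, distal minus proximal, and the interaction is the differentiation value minus the control value.

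Hox genes went both ways. Hoxb13 was 6.05 in control and 7.48 in differentiation medium (interaction 1.43, adjusted p = 0.00254), and Hoxa13 was 4.36 and 5.73 (1.36, adjusted p = 1.89e-05). Hoxd13 was 5.84 and 4.56 (-1.28, adjusted p = 0.00403), Hoxd10 was 1.40 and 0.43 (-0.97), Hoxa10 was 4.37 and 3.55 (-0.81), Hoxa9 was 3.76 and 2.16 (-1.60) and Hoxa7 was 2.82 and 1.70 (-1.12). Hoxb4, lower in distal organoids, was -2.82 and -1.82 (1.001). The adjusted p-values of the last 5 were between 0.00118 and 0.0368.

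A few differences were large in control medium and small in differentiation medium. Cdo1 was 4.40 and 0.74 (-3.66, adjusted p = 0.000127), Trf, transferrin, was 3.20 and -0.11 (-3.31, adjusted p = 8.29e-07), Spp1 was 3.49 and 0.66 (-2.83, adjusted p = 0.0159) and Krt90 was 3.35 and 0.73 (-2.62, adjusted p = 0.000825). Among genes lower in distal organoids, P2rx2 was -3.62 and -0.31 (3.31, adjusted p = 0.0209), Nat8l was -3.94 and -1.44 (2.497, adjusted p = 0.0181), Car8 was -2.66 and -0.92 (1.75, adjusted p = 0.00424) and the pseudogene Tmem181c-ps was -2.93 and -1.35 (1.58, adjusted p = 0.0432). Smaller shifts in the same sense were those of Fam174b (3.39 and 1.98, interaction -1.40), Gm43305 (3.89 and 2.62, interaction -1.27) and Clic6 (4.77 and 4.12, interaction -0.65).

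Others were larger in differentiation medium. Gsdmc4 was 4.39 and 7.70 (3.30, adjusted p = 0.0364), Adh1 was 4.64 and 7.57 (2.93, adjusted p = 0.039), Fhl1 was 3.93 and 5.83 (1.91, adjusted p = 0.00191) and Eno3 was 3.797 and 5.61 (1.82, adjusted p = 0.0119). Osr2 was -3.48 and -5.44 (-1.96, adjusted p = 0.000168) and Rbm11, an RNA-binding protein, was -2.69 and -4.04 (-1.35, adjusted p = 0.00411). B3gnt5 (3.24 and 4.13, interaction 0.89), Aldh1l1 (4.44 and 5.48, interaction 1.03) and the RNA gene ENSMUSG00002075973 next to Hoxb13 (4.15 and 5.25, interaction 1.10) shifted less, with adjusted p-values of 0.0383 to 0.045.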

How the results depend on the processing

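No called gene named here changed direction under any of the 18 alternatives. Of the genes not called, 3 changed sign when 1 library was left out (log2, distal minus proximal). Fn1, at -0.56, ranged from -1.85 without distal replicate 3 to 0.33 without distal replicate 2. Cdh1, at 0.02, ranged from -0.15 without distal replicate 3 to 0.17 without distal replicate 2, and Vil1, at -0.03, from -0.21 to 0.14 without the same libraries, with 0.0057 without proximal replicate 1. The count of 1301 genes (669 higher, 632 lower in distal organoids) was 716 (381 and 335) with a filter of 5 FPKM, which tested 7311 genes, 755 (406 and 349) when only the 6 libraries compared were fitted, and 783 (399 and 384) by limma-voom on the recovered reads of those 6, an alternative chosen after seeing the data. Leaving out each library gave 773 to 1502 genes (400 to 771 higher, 373 to 810 lower), with the lowest totals without proximal replicate 2 or 3. Fewer samples entered these fits, and beyond that the cause was not tested. Other settings of pseudocount, filter, scaling, libraries and test gave 1169 to 1658. The labels do not say whether the replicate numbers pair the samples. Same-numbered libraries had correlations of deviations of 0.0601, -0.264 and 0.366, and proximal replicate 1 correlated best with distal replicate 2. These values are of mixed sign and cannot decide whether the samples were paired. With a replicate block the counts were 593 (323 and 270) in the 6 libraries and 1440 in all 18. The planned edgeR and DESeq2 alternatives were not run, since the deposited unit is FPKM. Of 201 named genes called, 124 kept their call in every alternative. Beside the losses given in the report, calls were also lost with the 9 control libraries (Car1, Cdx1, Mvd, Thbs1), without the filter (Car1, Dhrs3, Mvd), with scaling to summed reads (Dhrs3, Mvd) and by limma-voom on 18 libraries (Alpi, Dhrs3).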
